A study of Homo sapiens with 6 samples.

Results

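This is a comparison of PTUPB at 20 uM with PTUPB at 10 uM in C4-2B MDVR cells without enzalutamide, as mRNA-seq levels across genes. C4-2B MDVR is a human prostate cancer line derived from C4-2B and resistant to enzalutamide, an antiandrogen drug. PTUPB inhibits cyclooxygenase-2 and soluble epoxide hydrolase. The study treated these cells for 2 days and sequenced 6 libraries, 1 per group: PTUPB at 20 uM, PTUPB at 10 uM, both doses with enzalutamide added, enzalutamide alone at 20 uM, and a DMSO control. The labels do not give the enzalutamide dose in the combinations. All cells carried the same resistant background, and no parental C4-2B library was used here. The comparison rests on 2 of the 6 libraries. It covers the 12960 of 58735 genes whose mean FPKM (fragments scaled by exon length and library size) over the 6 libraries was 1 or more; the lowest mean kept was 1.0004 and the highest left out 0.99996. The difference is log2(FPKM + 1) at 20 uM minus that at 10 uM, and a gene is called higher or lower when it reaches 1 in size. Neither dose has a replicate without enzalutamide, so no p-value is given, and the intervals on folds cover counting error only.

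Cyclooxygenase-2 makes prostaglandins from arachidonic acid, and soluble epoxide hydrolase breaks down epoxides of the same fatty acid. When unfolded protein builds up in the endoplasmic reticulum, cells use 3 membrane sensors, IRE1, PERK and ATF6, to raise chaperones, slow translation and, if stress lasts, turn on DDIT3. In luminal prostate cells androgen signalling, with the factors FOXA1 and HOXB13, drives secretory genes such as KLK3, which encodes prostate-specific antigen.

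The 20 uM library held more mRNA than the 10 uM library for the stress genes HSPA5, ATF3 and DDIT3, for most p53 targets and for part of the NRF2 and autophagy genes. It held less for most androgen-induced genes and for nearly all genes of mitosis. Of the 12960 genes, 1202 (9.27%) were called higher and 1692 (13.1%) lower, so 22.3% were called in either direction. The median gene differed by 0, and the middle of the distribution was narrow, with quartiles at -0.55 and 0.48. Differences of log2 3 or more were seen in 48 genes higher and 88 lower. Called genes were spread over all levels: 8.12% of genes with mean FPKM of 1 to 2 were higher and 15.8% lower, and in genes at 50 FPKM and above these shares were 9.66% and 14.9%. The split between higher and lower depends on scaling. As deposited, 41.5% of called genes were higher. The share was 41.6% after scaling by median of ratios and 44.6% after scaling to equal total fragments. Rescaled to TPM, in which the values of every library have the same sum, 61.2% were higher, and the median gene lay at 0.28. Among the 12960 genes, 262 had 0 fragments at 20 uM and 107 at 10 uM, of which 24 and 6 were protein-coding.

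Depth recovered from the deposited values was 22368705 fragments at 20 uM and 28848961 at 10 uM, within a range of 20156523 to 29450436 over the 6 libraries. FPKM of 1 or more was reached by 12608 genes at 20 uM and 13266 at 10 uM. One chaperone mRNA, HSPA5, alone took 2.44% of all fragments at 20 uM, where it ranked first, against 0.18% at 10 uM. The 13 mitochondrially encoded mRNAs took 3.73% of fragments at 20 uM, against 9.12% at 10 uM and 4.78% in the control. With enzalutamide added the shares were 3.68% at 20 uM and 10.4% at 10 uM, and enzalutamide alone had 9.48%. The 10 uM share thus lay near those of 10 uM with enzalutamide and of enzalutamide alone. The control share lay nearer to those of both 20 uM libraries. The cells expressed their labelled lineage at 10 uM, with all 12 luminal markers at FPKM of 1 or more, and 10 of 12 were at that level at 20 uM. Markers of basal epithelium, neuroendocrine cells, blood and endothelium stayed under 1 FPKM in all 6 libraries, with summed levels of at most 0.73 FPKM for any of these lists, and 4 of 6, 5 of 6, 4 of 6 and 3 of 5 of their genes were at 0 fragments at 20 uM. Of 6 stromal markers, COL1A1 alone exceeded 1 FPKM in both libraries, with 4.6 FPKM at 20 uM and 3.11 FPKM at 10 uM.

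**Figure D1:**
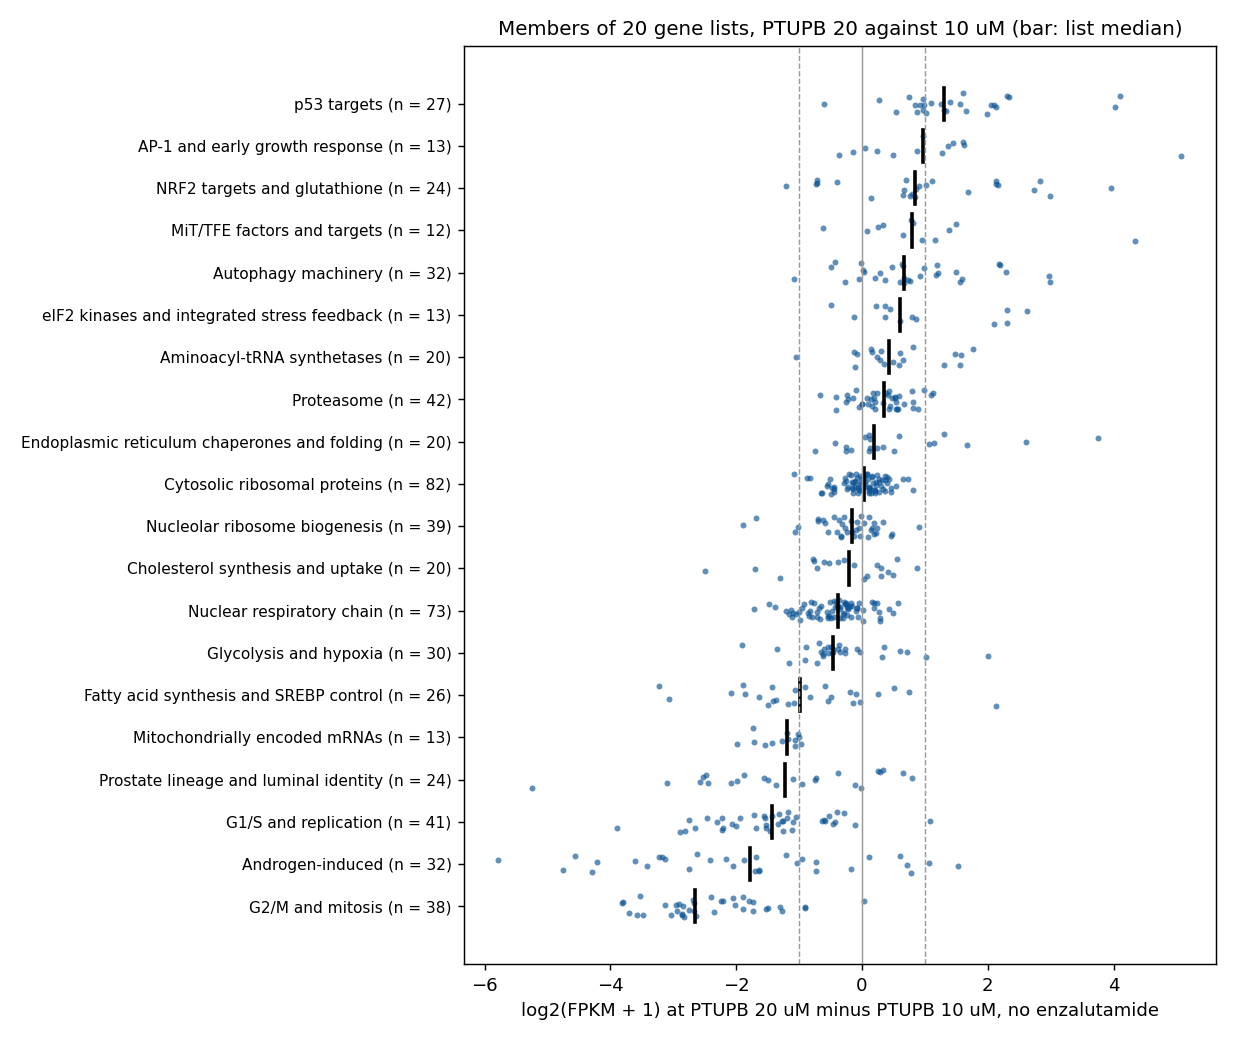
Difference in log2(FPKM + 1) between the PTUPB 20 uM and 10 uM libraries for the members of 20 gene lists, with 1 point per gene, a black bar at each list's median, and dashed lines at the call size of 1. The p53 target list sits furthest right with a median of 1.31, and the G2/M list furthest left with a median of -2.66.

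Endoplasmic reticulum chaperones moved unevenly. HSPA5 (BiP), the main chaperone of the reticulum and the protein that holds the stress sensors inactive, stood at 5919 FPKM at 20 uM, against 439.6 FPKM at 10 uM and 294 FPKM in the control. This is a difference of 3.75, or a 13.5-fold ratio (95% exact counting interval 13.3 to 13.6), and it made HSPA5 the most abundant mRNA by fragments in that library. DNAJB9, an HSPA5 co-chaperone, was at 93.6 FPKM at 20 uM and 14.5 FPKM at 10 uM. Its difference was 2.60, the second largest in the list. The oxidases ERO1B (1.67) and ERO1A (1.30), which keep disulfide formation going, were also higher, as were the chaperone HYOU1 (1.15) and the co-chaperone DNAJC3 (1.06), which also restrains PERK. The other 14 of the 20 measured members of this list were not called, the list median was 0.18, and 15 of 20 lay above 0. PDIA4, a disulfide isomerase, had 145 FPKM at 20 uM and 245 FPKM at 10 uM, the lowest difference of the list at -0.75.

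Promoters of 4 chaperone genes are printed because they share a stress element while their mRNAs differed by unlike amounts. The endoplasmic reticulum stress element, CCAAT, then 9 bases of any kind (N), then CCACG, searched on both strands, is bound by NF-Y at its CCAAT end and by ATF6 or XBP1 at its CCACG end. It was found in the 300 bases around the start (250 before, 50 after) of 27 of 35116 promoters in the RefSeq table (0.077%). By gene, it was in 15 of 8858 analysed genes that have an entry there (0.169%), and in 7 of 19 such chaperone-list genes (36.8%). Those 7 were HSPA5, ERO1B, CRELD2, CANX, HSP90B1, CALR and PDIA6, and only HSPA5 and ERO1B among them were called. The promoters below are from RefSeq on GRCh38.p14, 5′ to 3′ on the gene's strand, with the element in capitals. They are HSPA5 at chr9:125241294-125241593 (minus strand), ERO1B at chr1:236281909-236282208 (minus strand), HSP90B1 at chr12:103930160-103930459 (plus strand) and CALR at chr19:12938359-12938658 (plus strand).
HSPA5: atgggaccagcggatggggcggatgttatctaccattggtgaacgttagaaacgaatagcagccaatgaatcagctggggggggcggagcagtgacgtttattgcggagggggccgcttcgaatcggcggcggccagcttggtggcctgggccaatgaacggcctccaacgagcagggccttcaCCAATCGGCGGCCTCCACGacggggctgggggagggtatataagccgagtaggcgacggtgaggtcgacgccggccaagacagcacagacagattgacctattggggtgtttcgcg
ERO1B: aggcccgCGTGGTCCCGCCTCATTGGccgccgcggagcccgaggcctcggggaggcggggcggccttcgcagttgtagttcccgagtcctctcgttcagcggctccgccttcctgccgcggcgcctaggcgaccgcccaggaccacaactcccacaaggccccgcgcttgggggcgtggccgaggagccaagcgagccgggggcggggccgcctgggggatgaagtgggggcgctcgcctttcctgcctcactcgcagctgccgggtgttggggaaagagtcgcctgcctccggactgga
HSP90B1: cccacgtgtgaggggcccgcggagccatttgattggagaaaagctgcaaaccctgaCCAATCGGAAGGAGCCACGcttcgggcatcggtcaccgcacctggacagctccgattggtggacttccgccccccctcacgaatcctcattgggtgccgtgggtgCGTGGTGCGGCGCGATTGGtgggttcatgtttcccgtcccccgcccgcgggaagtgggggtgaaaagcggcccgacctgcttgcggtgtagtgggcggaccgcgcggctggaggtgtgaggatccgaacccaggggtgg
CALR: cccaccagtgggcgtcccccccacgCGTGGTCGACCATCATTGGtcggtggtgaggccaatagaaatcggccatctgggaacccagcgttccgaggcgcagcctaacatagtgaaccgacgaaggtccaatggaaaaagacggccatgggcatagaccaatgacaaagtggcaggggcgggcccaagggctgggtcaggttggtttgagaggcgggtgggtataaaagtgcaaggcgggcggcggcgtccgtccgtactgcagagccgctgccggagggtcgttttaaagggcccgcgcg
HSPA5 holds 1 exact match in the forward direction, 66 bases before the start, and ERO1B and CALR hold 1 each in reverse, 243 and 225 bases before it. HSP90B1 holds 2 exact matches. Sequences close to the element were not searched, so these counts do not rank the promoters by number of stress elements. HSP90B1, the reticulum's HSP90, had 604 FPKM at 20 uM and 559.6 FPKM at 10 uM, a difference of 0.11. CALR, a lectin chaperone and calcium buffer, had 472 FPKM at 20 uM and 563 FPKM at 10 uM, a difference of -0.25. With the element in their promoters but outside the chaperone list, FICD, which modifies HSPA5, was higher by 2.65 and SERP1, which protects proteins at the translocon, by 1.51. Across called genes with a promoter entry, the element was in 4 of 745 higher (0.537%) and 0 of 984 lower, against 0.169% of all analysed genes. A match is a description of letters in this window and does not show binding.

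Among genes for degradation and translocation at the reticulum, 3 of 24 were called higher, a share close to the 9.27% of all genes, and none lower, with a list median of 0.29. These were EDEM1 (1.34), which hands misfolded glycoproteins to degradation, HERPUD1 (1.31), a part of the ubiquitin ligase complex, and SEL1L (1.16), its scaffold. Of the 3 sensors, IRE1 (ERN1) was called, with 37.6 FPKM at 20 uM and 10.9 FPKM at 10 uM (1.70). ATF6 (0.99) and PERK (EIF2AK3, 0.79) had positive values under the call, and XBP1, the IRE1 substrate whose spliced form these gene-level values cannot separate, had 251 FPKM at 20 uM and 205 FPKM at 10 uM. CREB3L4, a related membrane factor expressed in prostate, went the other way at 8.69 FPKM at 20 uM, against 58.8 FPKM at 10 uM (-2.63). Its relative CREB3 was, besides ERN1, the other gene of this list called higher. The 11 sensors and factors had a median of -0.08, which becomes 0.21 in TPM, where 4 rather than 2 are higher.

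The stress transcription factors listed are only in part downstream of eIF2 phosphorylation. They included the gene with the largest positive difference among protein-coding genes with at least 5 FPKM in the higher library. ATF3, an early stress repressor and activator, had 205 FPKM at 20 uM, against 5.08 FPKM at 10 uM and 4.62 FPKM in the control. The 20 uM library thus stood 40.2-fold above the 10 uM library (95% exact counting interval 37.1 to 43.7; 19527 fragments at 20 uM and 607 at 10 uM). DDIT3 (CHOP), the factor linked to death under reticulum stress, had 359 FPKM at 20 uM and 26.1 FPKM at 10 uM, a 13.8-fold ratio (12.9 to 14.7). CEBPG (1.95) and CEBPB (1.91), partners of ATF4, and NFE2L2 (1.33), which encodes NRF2, made 5 of 11 called higher. ATF4 itself, which is controlled mainly by translation, had 199 FPKM at 20 uM and 195 FPKM at 10 uM, a difference of 0.03. ATF5 was lower, at 0.688 FPKM at 20 uM against 5.57 FPKM at 10 uM, as was JDP2 (-1.16).

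Where kinase and feedback genes of the eIF2 pathway were called, they were higher. Of 13 measured, 4 were called higher and none lower: PPP1R15A (GADD34, 2.63), which directs the phosphatase that reverses eIF2 phosphorylation, TRIB3 (2.31), a pseudokinase induced by ATF4 and DDIT3, NUPR1 (2.30), a stress-induced chromatin protein, and SESN2 (2.10), an inhibitor of mTORC1. CHAC1, a glutathione-degrading enzyme and ATF4 target, stayed under the call with 13.7 FPKM at 20 uM and 7.13 FPKM at 10 uM. Of 20 aminoacyl-tRNA synthetases 5 were higher, GARS the most, at 219.6 FPKM at 20 uM against 63.7 FPKM at 10 uM, and QARS was the 1 lower (-1.04). Amino acid transport and synthesis genes split, with 4 of 22 higher and 3 lower, where the share lower was close to the 13.1% of all genes. SLC3A2, the shared heavy chain of several transporters, was higher (1.55) while SLC7A5, its light chain for leucine uptake, was lower (-1.49), and the serine synthesis gene PSAT1 was lower (-1.03). Their median of -0.27 turned to 0.02 in TPM.

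Secreted stress factors were measured in 8 cases, of which 4 were called higher and none lower. LCN2, an iron-siderophore carrier, had 78.3 FPKM at 20 uM, against 4.62 FPKM at 10 uM and 1.65 FPKM in the control. FGF21, a metabolic hormone and ATF4 target, had 20.95 FPKM at 20 uM and 4.01 FPKM at 10 uM. GDF15 (1.32) and VEGFA (1.01) completed the group. The FGF21 promoter (chr19:48755274-48755573, plus strand, GRCh38.p14) is shown because it carries the C/EBP-ATF element TTGCATCA, in capitals, 54 bases before the start.
FGF21: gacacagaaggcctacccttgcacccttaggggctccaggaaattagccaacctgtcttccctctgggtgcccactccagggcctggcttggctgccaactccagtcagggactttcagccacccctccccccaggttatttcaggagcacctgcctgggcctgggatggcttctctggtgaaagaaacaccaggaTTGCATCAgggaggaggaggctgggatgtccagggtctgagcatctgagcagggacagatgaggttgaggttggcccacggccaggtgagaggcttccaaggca
The element, searched on both strands, was in 61 of 8858 analysed genes with an entry (0.689%), 11 of 745 called higher (1.48%) and 7 of 984 called lower (0.711%).

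**Figure D2:**
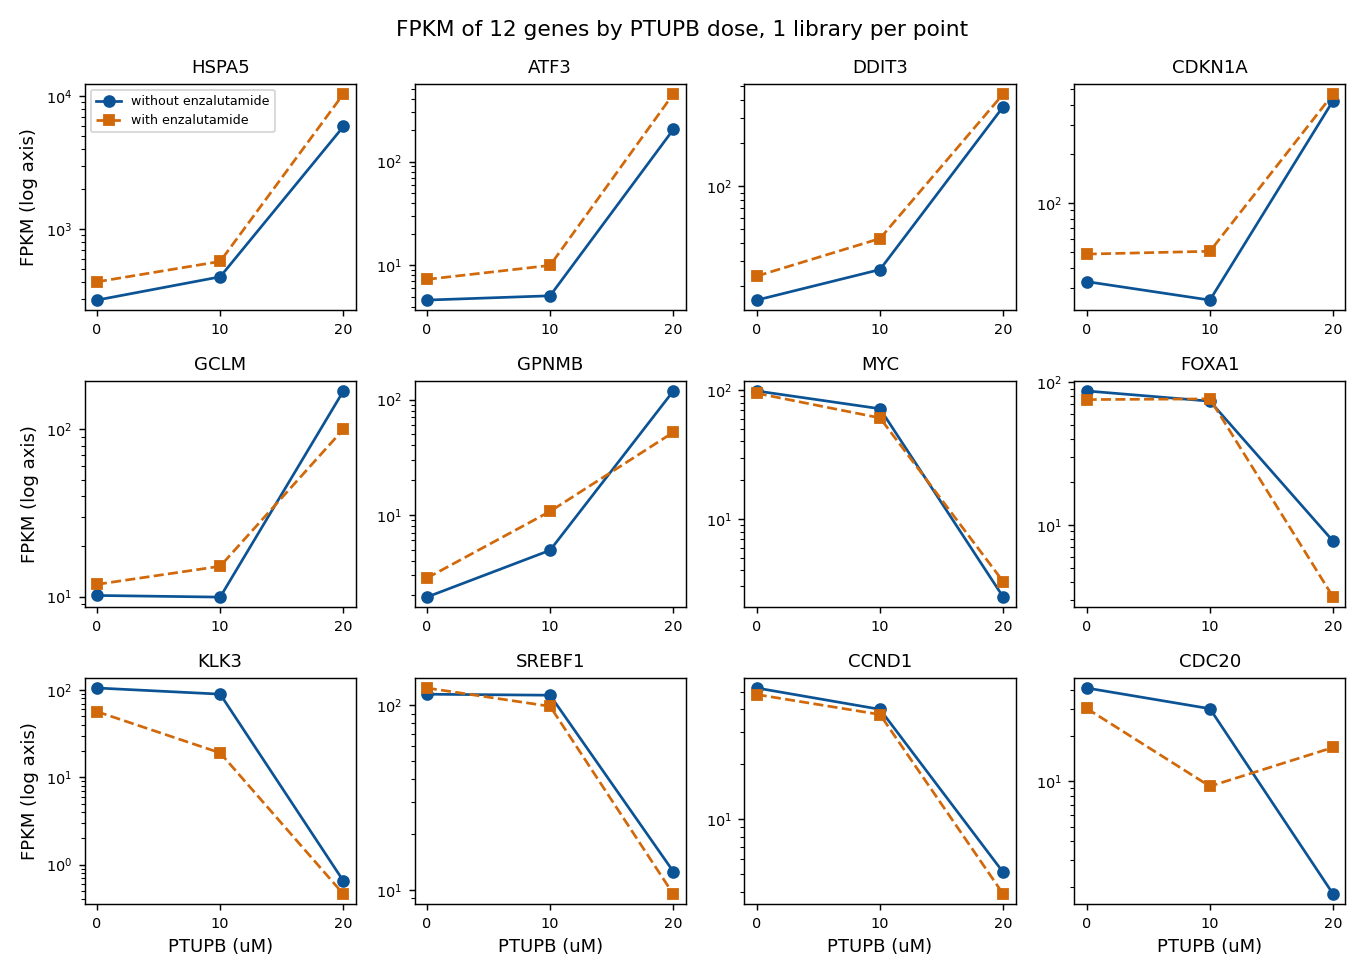
FPKM on a log axis against PTUPB dose for 12 genes, with 1 library per point, blue circles without enzalutamide and orange squares with it. In the series without enzalutamide HSPA5, ATF3, DDIT3, CDKN1A, GCLM and GPNMB are highest at 20 uM, and MYC, FOXA1, KLK3, SREBF1, CCND1 and CDC20 are lowest there, while most of these genes lie close together at 0 and 10 uM.

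Targets of p53, the stress-activated tumour suppressor factor, were higher more often than any other list of over 12 measured members: 17 of 27 were called higher and none lower, with a median of 1.31. GADD45A, a growth-arrest and DNA repair protein, had 115 FPKM at 20 uM and 5.69 FPKM at 10 uM (20.1-fold, counting interval 18.1 to 22.5). CDKN1A (p21), which blocks the kinases of the cell cycle, had 427 FPKM at 20 uM, against 25.2 FPKM at 10 uM and 32.8 FPKM in the control (16.9-fold, 16.2 to 17.7). Both genes also respond to stress without p53. ZMAT3 (2.34), a p53-induced RNA-binding protein, RRM2B (2.31), the p53-induced ribonucleotide reductase subunit, PHLDA3 (2.13), an AKT inhibitor, and AEN (1.98), a nuclease, were also called higher. MDM2, the ligase that degrades p53 and is its target, was at 33.3 FPKM at 20 uM and 10.2 FPKM at 10 uM (1.61). With a pseudocount of 5 FPKM, 10 of the 27 were called, and 24 in TPM.

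Nearly all genes of mitosis were lower. Of 38 G2/M and mitosis genes, 35 were called lower and none higher, with a list median of -2.66, and the median level of the list was 0.68 FPKM at 20 uM, against 10.7 FPKM at 10 uM and 13.4 FPKM in the control. BIRC5 (survivin), a subunit of the chromosomal passenger complex, had 0.466 FPKM at 20 uM and 19.6 FPKM at 10 uM. AURKB, the kinase of the same complex, had 0 fragments at 20 uM and 724 at 10 uM, which against a floor of 3 fragments is at least 193-fold lower. CDC20, the activator of the anaphase-promoting complex, had 1.79 FPKM at 20 uM and 30.2 FPKM at 10 uM. TOP2A (-3.53), a topoisomerase, HMMR (-3.71) and ANLN (-3.80), which act at the spindle and the cleavage furrow, CDK1 (-3.14), the mitotic kinase, and the proliferation marker MKI67 (-2.66) were lower as well. MYBL2, the MYB factor that drives late cell cycle genes, had 1.54 FPKM at 20 uM and 41.9 FPKM at 10 uM. In bulk RNA, fewer cells in a phase and less mRNA per cell cannot be told apart. Of 29 kinesins 10 were lower, led by the mitotic motor KIF20A (-2.96), and 1 was higher, against 6 higher in TPM.

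Genes of S phase entry and replication were mostly lower too. Of 41 G1/S and replication genes, 31 were lower and 1 higher, with a median of -1.43. TK1, a thymidine salvage kinase made in S phase, had 2.59 FPKM at 20 uM and 52.3 FPKM at 10 uM. RRM2, the S-phase subunit of ribonucleotide reductase, had 0.0954 FPKM at 20 uM and 7.12 FPKM at 10 uM, while RRM2B was higher. CCND1 (cyclin D1) was at 5.09 FPKM at 20 uM and 39.9 FPKM at 10 uM, and the replication proteins CDC45 (-2.81), MCM10 (-2.65) and MCM4 (-2.30) were lower too. The count of lower G1/S genes was 17 with a pseudocount of 5 FPKM, and 18 of 25 when genes under a mean of 5 FPKM are left out. The E2F element GGCGGGAA, on either strand, lay in 8 of 34 of these genes with a promoter entry (23.5%), 586 of all 8858 analysed (6.62%) and 3 of 31 G2/M genes (9.68%). Among all called genes the shares, 7.83% of the lower and 6.44% of the higher, lay near that of all analysed. The 8 were not all lower: RFC2, the clamp loader subunit that was the 1 higher gene, and RFC4 and RRM1, which were not called, are among them.

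MYC, a driver of growth and ribosome production, had 2.48 FPKM at 20 uM, against 71.7 FPKM at 10 uM and 98.5 FPKM in the control. It was 28.9-fold lower at 20 uM (counting interval 24.9 to 33.7). In its network, the antagonist MXD1 was higher (1.61), MXD3 lower (-1.40) and the partner MAX was at 14.2 FPKM at 20 uM and 9.26 FPKM at 10 uM. Few ribosome genes were called. None of 39 nucleolar ribosome biogenesis genes was higher and 4 were lower, a share under the 13.1% of all genes. Among the 4 were NOP56 (-1.89) and BOP1 (-1.68), and the list median of -0.15 turns to 0.12 in TPM. Of 82 cytosolic ribosomal protein genes 1 was lower (RPL22L1, -1.08) and none higher, at a median of 0.04 (0.33 in TPM). Reads of ribosomal protein genes may be shared with their many pseudogenes.

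Androgen-induced genes were mostly lower, and KLK3 had the largest negative difference among protein-coding genes with at least 5 FPKM in the higher library. Of 32 androgen-induced genes that passed the level filter (of 37), 22 were called lower and 2 higher, with a median of -1.79. KLK3 had 0.648 FPKM at 20 uM, against 89.7 FPKM at 10 uM and 105 FPKM in the control, a 138-fold difference (counting interval 109.7 to 177; 71 fragments at 20 uM and 12296 at 10 uM). KLK2, its close paralog, had 0.232 FPKM at 20 uM and 32.3 FPKM at 10 uM, and reads of the 2 kallikreins may be shared. TMPRSS2, a surface protease, had 5.999 FPKM at 20 uM and 84.6 FPKM at 10 uM, and SLC45A3 (prostein) 4.34 FPKM at 20 uM and 125 FPKM at 10 uM. ACPP, which encodes prostatic acid phosphatase (-4.29), PLPP1, a lipid phosphatase (-4.21), and STEAP1, a surface metalloreductase family member (-3.42), were lower as well. FKBP5, an HSP90 co-chaperone, had 3.64 FPKM at 20 uM and 13.9 FPKM at 10 uM, and 35.4 FPKM in the control. Under TPM, 21 were lower and 5 higher.

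The genes of the list that androgen is known to repress were lower too. Of 5 that passed the filter (of 12), 4 were called lower and none higher. UGT2B15, an enzyme that inactivates androgens by glucuronidation, had 0.183 FPKM at 20 uM and 27.8 FPKM at 10 uM, and its control level was 9.79 FPKM. UGT2B17 had 0 fragments at 20 uM and 535 at 10 uM, at least 143-fold lower against the floor of 3 fragments, and UGT2B11 was lower by a log2 difference of -4.11. These UGT2B genes are near-identical in parts, so their reads are uncertain. AKR1C3, which makes testosterone and prostaglandin F2 alpha, was the 1 called higher among 10 steroid enzymes, at 5.58 FPKM at 20 uM and 0.0597 FPKM at 10 uM, with close AKR1C paralogs.

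Factors of the luminal lineage were lower too. SPDEF, an epithelial ETS factor, had 0.111 FPKM at 20 uM (5 fragments) and 41.2 FPKM at 10 uM (2330 fragments). FOXA1, a pioneer factor that opens chromatin, had 7.69 FPKM at 20 uM and 73.6 FPKM at 10 uM, and HOXB13, the prostate homeobox factor, 8.67 FPKM at 20 uM and 52.01 FPKM at 10 uM. Of 24 lineage and luminal genes 13 were lower and none higher, with a median of -1.23. Of the 12 luminal markers 8 were lower, while the epithelial genes CDH1 (0.66), EPCAM (-0.39), KRT8 (0.33) and KRT18 (0.29) were not called. CDH1 (E-cadherin) had 357 FPKM at 20 uM and 226 FPKM at 10 uM. The summed luminal marker level was 701 FPKM at 20 uM and 1402 FPKM at 10 uM. In the neuroendocrine list 3 of 15 genes passed the level filter, of which the vesicle protein SYT4 was lower (-3.45) and CALCA, the calcitonin gene, higher (2.10).

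Of the genes for the compound's targets, PTGS2 was hardly detected and EPHX2 was called lower. EPHX2, which encodes soluble epoxide hydrolase, had 3.26 FPKM at 20 uM and 8.78 FPKM at 10 uM, a difference of -1.20 that becomes -0.74, under the call, with a pseudocount of 5 FPKM. PTGS2, the gene for cyclooxygenase-2, did not pass the level filter: it had 2 fragments in the 10 uM library with enzalutamide and 0 in the other 5 libraries. PTGS1, its constitutive relative, had 0.146 FPKM at 20 uM and 0.602 FPKM at 10 uM; its difference of -0.48 becomes -1.51 with a pseudocount of 0.1 FPKM. Of 14 genes of eicosanoid handling that passed the filter (of 28), 1 was higher (AKR1C3) and 3 lower, with EPHX4 (-1.60), PTGES, a prostaglandin E synthase (-1.44), and EPHX2. Of 11 phospholipases A2, which release arachidonic acid, 2 were higher and 3 lower, PLA2G2A the most (-2.57). CYP4F11, a fatty acid hydroxylase, had 17.5 FPKM at 20 uM and 1.97 FPKM at 10 uM, and the epoxygenase CYP2J2 had 3.09 FPKM at 20 uM and 9.28 FPKM at 10 uM.

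Lipid synthesis genes were lower in part. Of 26 genes of fatty acid synthesis and its SREBP control, 13 were lower and 1 higher, with a median of -0.98. SREBF1, the factor that drives the pathway, had 12.6 FPKM at 20 uM and 113 FPKM at 10 uM. FADS2, a desaturase, had 9.29 FPKM at 20 uM and 95.9 FPKM at 10 uM. FASN (fatty acid synthase) had 33.3 FPKM at 20 uM, against 126 FPKM at 10 uM and 350.4 FPKM in the control, so its level was ordered over all 3 doses. ME1, which makes NADPH and is also an NRF2 target, was the 1 higher (2.14). Of 20 cholesterol genes 3 were lower, a share close to the 13.1% of all genes, and none higher. TM7SF2 was the lowest (-2.49), and the list median of -0.21 turns to 0.04 in TPM. Fatty acid oxidation genes had 2 of 21 higher, a share close to the 9.27% of all genes, and 5 lower. Among the lower was CPT1A, the gate to mitochondrial oxidation, at 11.2 FPKM at 20 uM and 48.6 FPKM at 10 uM.

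Antioxidant genes under NRF2 were higher in 10 of 24 cases and lower in 1, with a median of 0.85, and 16 were higher in TPM. GCLM, the regulatory subunit of the enzyme that starts glutathione synthesis, had 169.7 FPKM at 20 uM, against 9.94 FPKM at 10 uM and 10.2 FPKM in the control. HMOX1 (heme oxygenase) was at 43.6 FPKM at 20 uM and 5.28 FPKM at 10 uM, and SRXN1 (2.74), TXNRD1 (2.16) and OSGIN1 (2.13) were called as well. SLC7A11, the cystine transporter shared with the ATF4 program, was just past the call at 1.01. Ferritin heavy chain FTH1 had 1398 FPKM at 20 uM and 134 FPKM at 10 uM, and light chain FTL 696 FPKM at 20 uM and 299.7 FPKM at 10 uM; both have many pseudogenes. Metallothioneins, 3 measured, gave 0 calls, with MT2A at 69.2 FPKM at 20 uM and 66.3 FPKM at 10 uM.

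Autophagy genes were called higher in 11 of 32 cases and lower in 1, with a median of 0.67, and 18 were higher in TPM. SQSTM1 (p62), a cargo receptor and NRF2 target, had 230.4 FPKM at 20 uM and 28.02 FPKM at 10 uM. OPTN, another receptor, had 32.5 FPKM at 20 uM and 3.27 FPKM at 10 uM, and MAP1LC3B, the membrane tag of autophagosomes, 47.3 FPKM at 20 uM and 9.56 FPKM at 10 uM. WIPI1 (2.29) and RB1CC1 (2.18), early assembly factors, were also higher. Of 12 MiT/TFE genes 4 were higher and none lower, with 7 higher in TPM. GPNMB, a transmembrane glycoprotein of this set, had 119 FPKM at 20 uM, against 4.93 FPKM at 10 uM and 1.93 FPKM in the control, 24.1-fold at 20 over 10 uM (22.5 to 25.8). Lysosome genes had 3 of 41 higher and 3 lower (7 and 3 in TPM), shares under the 9.27% and 13.1% of all genes. Of 42 proteasome genes 2 were higher, PSMD10 (1.13) and PSMD8 (1.10), also under the share of all genes. None was lower, and 7 were higher in TPM.

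Of 13 immediate early factors that passed the level filter (of 22), 6 were higher and none lower. The 6 included ATF3, described above, and JUNB (1.62), JUN (1.60) and JUND (1.45), subunits of AP-1. The heat shock list, chosen as cytosolic but also holding the mitochondrial chaperonin HSPE1, split evenly, with 4 of 22 higher and 4 lower. HSPA8, the constitutive cytosolic HSP70, had 160.5 FPKM at 20 uM and 422 FPKM at 10 uM, and the small heat shock protein HSPB1 had 28.7 FPKM at 20 uM and 189 FPKM at 10 uM. HSPA9, the mitochondrial HSP70, was higher (1.33). In the BCL2 family 4 of 15 were higher and 3 lower, and both directions held death-promoting members; 1 was higher with a pseudocount of 5 FPKM. HRK (2.36) and PMAIP1 (NOXA, 1.31) were higher, as was the survival gene BCL2L1 (1.17), while BOK (-1.64), BIK (-1.40) and BID (-1.37) were lower. TNFRSF10B, the death receptor DR5 and a DDIT3 target, had 96.4 FPKM at 20 uM and 48.03 FPKM at 10 uM, just under the call at 0.99.

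All 13 mitochondrially encoded mRNAs had negative differences and 12 were called lower, with a median of -1.19. MT-CO2 (cytochrome oxidase subunit 2) had 3718 FPKM at 20 uM, against 14738 FPKM at 10 uM and 7834 FPKM in the control, and MT-ND2 had 1699.8 FPKM at 20 uM, 3869 FPKM at 10 uM and 1750.4 FPKM in the control. Among the 3 libraries without enzalutamide, both were highest at 10 uM. In the step with enzalutamide 9 of the 13 were called lower, with a median of -1.22. Rescaled to TPM, 5 of 13 were called in the step without enzalutamide. Nuclear genes of the respiratory chain had 10 of 73 lower, a share close to the 13.1% of all genes, and 4 in TPM; none was higher, and the list median was -0.38. COX6B1, a cytochrome oxidase subunit, had 32.02 FPKM at 20 uM and 108 FPKM at 10 uM. Glycolysis and hypoxia genes had 2 of 30 higher, HK2, the first enzyme (2.00), and VEGFA, and 3 lower, LDHA the most (-1.90). Both shares lay under those of all genes, 9.27% higher and 13.1% lower. With a pseudocount of 0.1 FPKM 5 were lower.

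The remaining genes with the largest differences lay outside the lists described above. Higher at 20 uM were UPP1, a uridine salvage enzyme, with 40.2 FPKM against 1.11 FPKM at 10 uM, CHST1, a keratan sulfotransferase (4.14), OLAH, a fatty acid thioesterase (4.08), NOS3, the endothelial nitric oxide synthase (3.93), GEM, a small GTPase (3.82), LAMP3, a lysosome membrane protein (3.79), and HOXB9, a homeobox factor (3.61). CHST1 and OLAH were close to the counting floor at 10 uM, with 16 and 11 fragments, and had 1588 and 1038 at 20 uM. Lower were SPON2, a secreted matrix protein, with 13.9 FPKM at 20 uM against 396 FPKM at 10 uM, LRRC26, a potassium channel subunit (-4.67), ACKR3, a chemokine scavenger receptor (-4.30), and SLC22A3, an organic cation transporter (-4.24).

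Housekeeping genes set a scale for these values. Of 24, 2 were higher and none lower, at a median of 0.12. ACTB had 355 FPKM at 20 uM and 522 FPKM at 10 uM (-0.55), and GAPDH 251 FPKM at 20 uM and 412 FPKM at 10 uM (-0.71). Replication-dependent histone genes, whose mRNAs normally lack poly(A) tails, had 26 of 89 members past the filter, with 9 higher and none lower, led by the linker histone HIST1H1C, at 228 FPKM at 20 uM and 41.5 FPKM at 10 uM; 4 were higher with a pseudocount of 5 FPKM, and histone copies share sequence.

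Some genes did not follow one direction over the 3 doses without enzalutamide. Levels at 0 and 10 uM differed by the call size one way, and at 10 and 20 uM the other, so that 40 genes were lowest at 10 uM and 105 highest there. UGT2B15 had 9.79, 27.8 and 0.183 FPKM at 0, 10 and 20 uM, and UGT2B17 2.64, 8.71 and 0 FPKM. GCG, the glucagon gene, had 7.43, 16.1 and 0.0532 FPKM, and GSTA1, a glutathione transferase, 11.3, 25 and 0.748 FPKM at these doses. The leading 5 of the 40 that were lowest at 10 uM, SNORD88A, MIR589, MT-TS1, MIR8055 and MIR563, are short RNA genes with at most 7 fragments in that library. Since the 10 uM library enters both steps, an error in it alone could place a gene in this group.

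The same dose step was measured a second time with enzalutamide present, in 2 libraries that share none with the pair above. There 1775 genes (13.7%) were higher and 1900 (14.7%) lower, 28.4% in either direction. That split depends on scaling too: 48.3% of the called genes were higher as deposited and 37.2% (1328 higher, 2243 lower) with equal total fragments, where the median gene lay at -0.11. Higher in both steps were 721 genes, 60.0% of those higher without enzalutamide and 40.6% of those higher with it. Lower in both were 1047 genes, 61.9% of those lower without enzalutamide and 55.1% of those lower with it. Another 451 higher and 598 lower genes were called without enzalutamide and reached the call in neither direction with it. Across the 12960 genes the 2 steps had a Pearson r of 0.71 and a Spearman rho of 0.71; genes are not independent replicates.

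**Figure D3:**
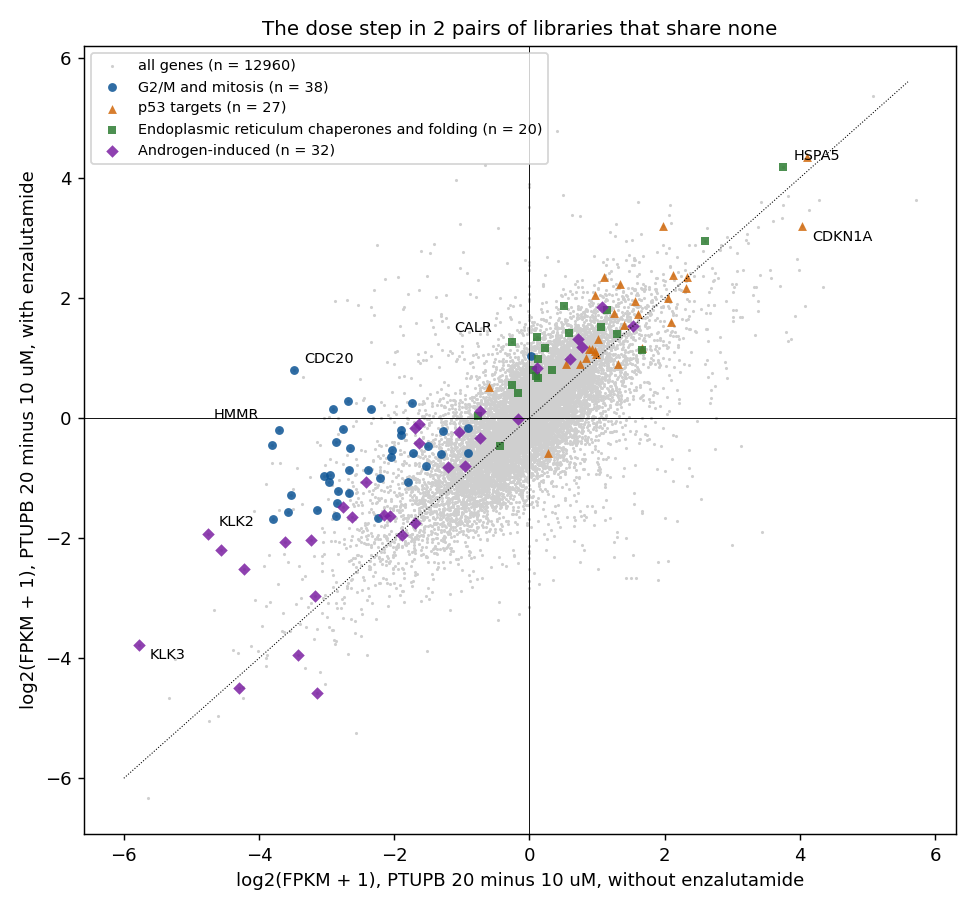
Difference in log2(FPKM + 1) between PTUPB 20 and 10 uM for 12960 genes, without enzalutamide on the horizontal axis and with it on the vertical axis, with 4 lists in colour and the line of equal values dotted. HSPA5 (3.75 and 4.18) and CDKN1A (4.03 and 3.19) lie near that line, while most G2/M genes lie above it, CDC20 at -3.49 and 0.79.

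The leading stress genes were higher in both steps. ATF3 differed by 5.08 without enzalutamide and 5.36 with it, DDIT3 by 3.73 and 3.33, and GADD45A by 4.11 and 4.35. HSPA5 with enzalutamide had 10392 FPKM at 20 uM and 574 FPKM at 10 uM and took 3.70% of fragments at the higher dose. Of the 17 p53 targets called higher without enzalutamide, 16 were also called higher with it, where 22 of 27 were. MYC (-4.38 and -3.86) and FOXA1 (-3.10 and -4.23) were lower in both steps.

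Chaperones of the reticulum were called more often with enzalutamide, in 11 of 20 cases against 6 of 20, and the 6 were among the 11; with equal total fragments the counts were 9 and 6. As deposited, other lists had more higher genes in that step as well, as did all genes (13.7% against 9.27%). For all genes this depends on scaling. With equal total fragments 1328 genes were higher with enzalutamide and 1309 without it, and in TPM 2149 with and 2524 without it. The list counts that follow are as deposited. With enzalutamide 23 of 76 mitochondrial ribosomal protein genes were higher, against 1 without it, and 14 of 42 proteasome genes, against 2. For 82 cytosolic ribosomal protein genes the counts were 8 with and 0 without enzalutamide, and for 24 housekeeping genes 5 with and 2 without. ACTB differed by 1.07 with enzalutamide (0.89 with equal total fragments) and -0.55 without it. HSP90B1 differed by 0.11 without enzalutamide and 1.34 with it, and CALR by -0.25 and 1.27; both carry the element printed above. CANX (0.98), CRELD2 (0.66) and PDIA6 (0.55), which also carry it and were not called without enzalutamide, were not called with it either. CALR with enzalutamide had 989 FPKM at 20 uM and 408 FPKM at 10 uM. The 3 metallothioneins, with 0 called in the step without enzalutamide, were all 3 higher in the step with it, MT2A at 249 FPKM at 20 uM and 81.8 FPKM at 10 uM under enzalutamide. Whether the steps differ was not tested, as there is 1 library per cell of the layout.

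Mitotic genes showed the reverse, with 35 of 38 lower in the step without enzalutamide and 11 of 38 in the step with it (17 in TPM); with a pseudocount of 5 FPKM the counts were 27 without and 1 with enzalutamide. The levels show where the steps part. With enzalutamide, the list's median level was 1.53 FPKM at 20 uM, and 3.63 FPKM at 10 uM, already under the 10.7 FPKM of 10 uM without enzalutamide, and 10.4 FPKM with enzalutamide alone. BIRC5 had 3.97 FPKM at 20 uM with enzalutamide and 5.79 FPKM at 10 uM with it, and CDC20 had 16.7 FPKM at 20 uM and 9.25 FPKM at 10 uM with it, so CDC20 at 20 uM was higher with enzalutamide than the 1.79 FPKM without it. KLK2 had a lower level at 10 uM with enzalutamide than without it. Without enzalutamide KLK2 had 0.232 FPKM at 20 uM and 32.3 FPKM at 10 uM, a step of -4.76. With enzalutamide it had 0.188 FPKM at 20 uM and 3.51 FPKM at 10 uM, a step of -1.93.

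**Figure D4:**
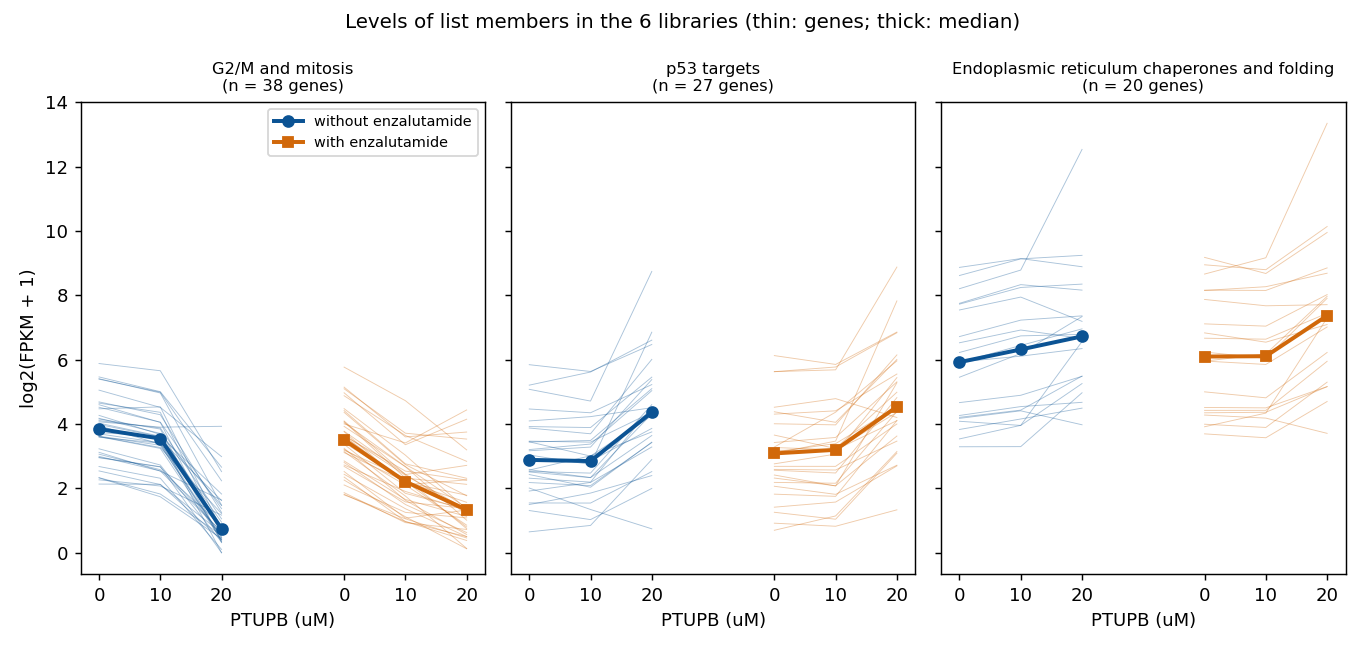
Level as log2(FPKM + 1) in all 6 libraries for members of 3 lists, with PTUPB dose on the horizontal axis in a series without enzalutamide (blue) and one with it (orange), thin lines for genes and thick lines for list medians. The G2/M median is nearly level between 0 and 10 uM and drops at 20 uM without enzalutamide, and is lower already at 10 uM with it; p53 targets and chaperones are highest at 20 uM in both series.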

How the data were processed

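The authors deposited 1 table of values for 58735 genes in 6 libraries, with no replicates. Its values were read here as FPKM because, multiplied by GENCODE 29 exon length, the deposited FPKM were whole multiples of 1 step per library within 0.05 for 100% of values, which gave fragments. HISAT and Cufflinks are named in the submitters' processing notes. Genome build and strand setting are not stated in the labels, which leaves overlapping genes and close paralogs uncertain. No test was made with 1 library per group, and folds carry exact 95% counting intervals. Counts over 64 gene lists are to be read against all genes, 9.27% higher and 13.1% lower in the step without enzalutamide. The members and lists were chosen with earlier results of these data known. Genes were named by rule: the 15 largest differences per direction among protein-coding genes with at least 5 FPKM in the higher library, up to 6 per list (all where 12 or fewer were measured), a fixed set, and 5 per direction for opposite steps and for non-monotonic levels; AEN, CALR, CANX, CDK1, CRELD2, FICD, HSP90B1, HSPA8, HSPA9, ID1, MCM4, MT-ND2, OSGIN1, PDIA4, PDIA6, RFC2, RFC4, RRM1, SERP1, SLC7A11 and STEAP1 were chosen after their values were seen. Some genes that the rule names are not reported here. The script was tested on simulated data. Python 3.11.15, numpy 2.4.6, pandas 2.3.3, scipy 1.17.1 and matplotlib 3.10.9 were used. Other pseudocounts, level filters, scalings and a call size of 2 were tried.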

Additional observations from a re-analysis of the deposited data

Results flagged for a closer look

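Genes with opposite dose steps were picked out because the 2 pairs of libraries moved at least log2 1 in opposite directions. There were 77: 30 higher without and lower with enzalutamide, and 47 the reverse. The difference between the steps was not tested, with 1 library per group. By type, 15 were snRNA, 13 miRNA, 13 miscellaneous RNA and 13 snoRNA genes, and 1 was protein-coding, ID1, an inhibitor of basic helix-loop-helix factors, with 19.8 FPKM at 20 uM and 6.75 FPKM at 10 uM without enzalutamide, and 5.08 and 23.4 FPKM with it.

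The largest 5 higher without enzalutamide were MIR4685, with a step of 3.43 without and -1.90 with enzalutamide, SNORD88A, with 2.996 and -2.11, MIR8055, with 2.54 and -1.36, an RF00019 (Y RNA) gene, with 2.32 and -1.13, and RNY4P10, with 2.18 and -1.72. The largest 5 lower without it were SNORD116-6, with -2.88 and 1.94, RNY1P13, with -2.70 and 1.96, RF00622, with -2.53 and 1.89, RNU6-1016P, with -2.34 and 1.26, and SNORA77, with -2.34 and 1.85. All 10 are short genes resting on few fragments: in the pair without enzalutamide none had over 24 in either library, and 9 of 10 had 0 in one of them. MIR4685, for example, had 16 at 20 uM and 0 at 10 uM.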

How the results depend on the processing

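No fit with a replicate block was made, as the labels carry no replicate numbers, and no library was left out, as each group has 1. A joint fit of dose and enzalutamide over the 6 libraries was not made. All 51 single genes recomputed kept their sign under every other pseudocount, filter and scaling that gave them a value. The number higher and lower was 451 and 618 with a pseudocount of 5 FPKM (867 and 548 with enzalutamide), 703 and 897 with mean FPKM of 5 or more (1239 and 904 with enzalutamide), and 198 and 423 at a call size of log2 2 (246 and 383 with enzalutamide); 2524 were higher in TPM. The median of all genes was -0.0506 with no filter, 0.034 with mean FPKM of 5 or more, 0.0331 with equal total fragments and 0.28 in TPM. With a pseudocount of 5 FPKM, 10 p53 targets were higher and 17 G1/S genes lower; 18 G1/S genes were lower with mean FPKM of 5 or more, as fewer were analysed. In TPM, 16 NRF2 and 18 autophagy genes were higher and 5 mitochondrially encoded mRNAs lower. At a call size of 2, 2 chaperones, 7 p53 targets and 5 autophagy genes were higher, and 12 G1/S, 7 lineage, 3 fatty acid synthesis and 0 mitochondrially encoded genes lower. TPM divides each library by its FPKM sum, 266625 at 20 uM and 327486 at 10 uM. It thus raises values at 20 uM relative to those at 10 uM. The 13 mitochondrially encoded mRNAs held 36832 FPKM of the sum at 20 uM and 94508 FPKM at 10 uM. A larger pseudocount makes every difference smaller in size. Beyond what the settings do by construction, the cause of these moves was not tested. Scaling by median of ratios changed no call among the named genes recomputed. Depth limits low genes: 3 fragments in a gene of 1 kilobase equal 0.127 FPKM at 20 uM and 0.101 FPKM at 10 uM.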

Other observations

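Immune and signalling genes outside the lists above were called in both directions in the step without enzalutamide, where 22.3% of all genes were called. Values in brackets are log2(FPKM + 1) differences, 20 minus 10 uM. Of 18 interferon genes 3 were higher and 3 lower, with a median of -0.15 that turns to 0.10 in TPM. IRF1, an interferon response factor, had 3.09 FPKM at 20 uM and 0.174 FPKM at 10 uM. BST2 (tetherin), an interferon-induced surface protein that holds back virus release, had 2.69 FPKM at 20 uM and 21.1 FPKM at 10 uM. Of 10 MHC class I genes 1 was higher, a share close to the 9.27% of all genes, and none lower. The 1 higher was ERAP1 (1.57), which trims peptides in the reticulum. In the NF-kB list 3 of 12 were higher, RELB the most (1.97), and 1 lower. Of 12 MAP kinase phosphatases and feedback genes 2 were higher, ERRFI1 (1.67), an inhibitor of the EGF receptor, and DUSP5 (1.62), and none lower.

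Among 21 death receptor, caspase and IAP genes, 4 were higher and 1 lower. XIAP (1.35) and BIRC2 (1.26), inhibitors of apoptosis, were higher, as were the receptor TNFRSF21 (1.92) and CASP4 (1.11), and the 1 lower was BIRC5. Of 12 long noncoding RNAs 1 was higher and 2 lower, shares close to the 9.27% and 13.1% of all genes. GAS5, a host of snoRNAs, had 264 FPKM at 20 uM and 96.5 FPKM at 10 uM, and DANCR, also a snoRNA host, 19.2 FPKM at 20 uM and 64.4 FPKM at 10 uM. Of 4 measured carbonic anhydrases CA12 had the largest negative difference, with 2.27 FPKM at 20 uM and 21.2 FPKM at 10 uM, and FN1 (fibronectin) was the 1 lower of 7 epithelial-mesenchymal transition genes (-2.15). None of these has a replicate.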
